A study of Mus with 17 samples.

Results

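Phosphatidylcholine, the main phospholipid of liver membranes, bile and lipoprotein shells, is made and remodelled by the enzymes of 9 genes described here: Chka, Chkb, Pcyt1a and Chpt1 of the choline route, Pemt of the methylation route, and the acyltransferases Lpcat1, Lpcat2, Lpcat3 and Lpcat4. They were chosen by name, as the genes of phosphatidylcholine synthesis and acyl-chain remodelling, from the 24940 gene symbols in the count files, and all 9 were found and tested. Bulk RNA sequencing covered whole livers of 17 male C57BL6/JBomTac mice, 1 library per mouse. For 52 weeks, 8 of them had been fed western diet with 42 g/L of fructose in their water, a model of advanced fatty liver disease with inflammation, and 9 age-matched mice had received standard chow and water without fructose. Every mouse was fasted overnight before sacrifice. The comparison asks how the transcripts of these enzymes differed between the diets.

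Liver makes phosphatidylcholine in 2 ways. In the choline route, a choline kinase phosphorylates choline, the cytidylyl transferase Pcyt1a activates it and sets the pace of the route, and Chpt1 joins it to diacylglycerol. In the methylation route, which is found mainly in hepatocytes, Pemt methylates phosphatidylethanolamine with methyl groups from S-adenosylmethionine. Finished phosphatidylcholine is then remodelled: phospholipases remove an acyl chain, and lysophosphatidylcholine acyltransferases put another one on, Lpcat3 with a preference for polyunsaturated chains. A liver short of phosphatidylcholine exports less fat in lipoproteins, and mice that lack Pemt or choline are known to store fat in the liver.

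On western diet 4 of the 9 genes rose (Chka, Lpcat1, Lpcat2 and Lpcat4), 3 fell (Chkb, Pcyt1a and Chpt1), and Pemt and Lpcat3 did not pass (quasi-likelihood test of edgeR, p-values adjusted after Benjamini and Hochberg over the 13204 tested genes, threshold 0.05). Over all tested genes 24.8% rose and 23.6% fell, 48.4% in all, so that a call in itself was common in these livers. The median log2 difference, western diet minus chow, was 0.042 over the 9 genes and −0.0091 over all tested genes. In 1 of the 9, Lpcat2, the libraries of the diets did not overlap, with every western diet library the higher, as in 6.98% of all tested genes. In none of the 9 did every western diet library lie below every chow library, which was so in 5.05% of all tested genes. The rises ranged from 1.45-fold to 3.18-fold and the falls from 1.28-fold to 1.30-fold. Those 4 rises held in each of 26 other fits. The falls were small enough to depend on scaling: when libraries were scaled by their size alone, without TMM factors, the median of all tested genes moved to 0.12, 73.5% of all calls in place of 51.2% were rises, and 1 of the 9 genes fell in place of 3.

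**Figure D1:**
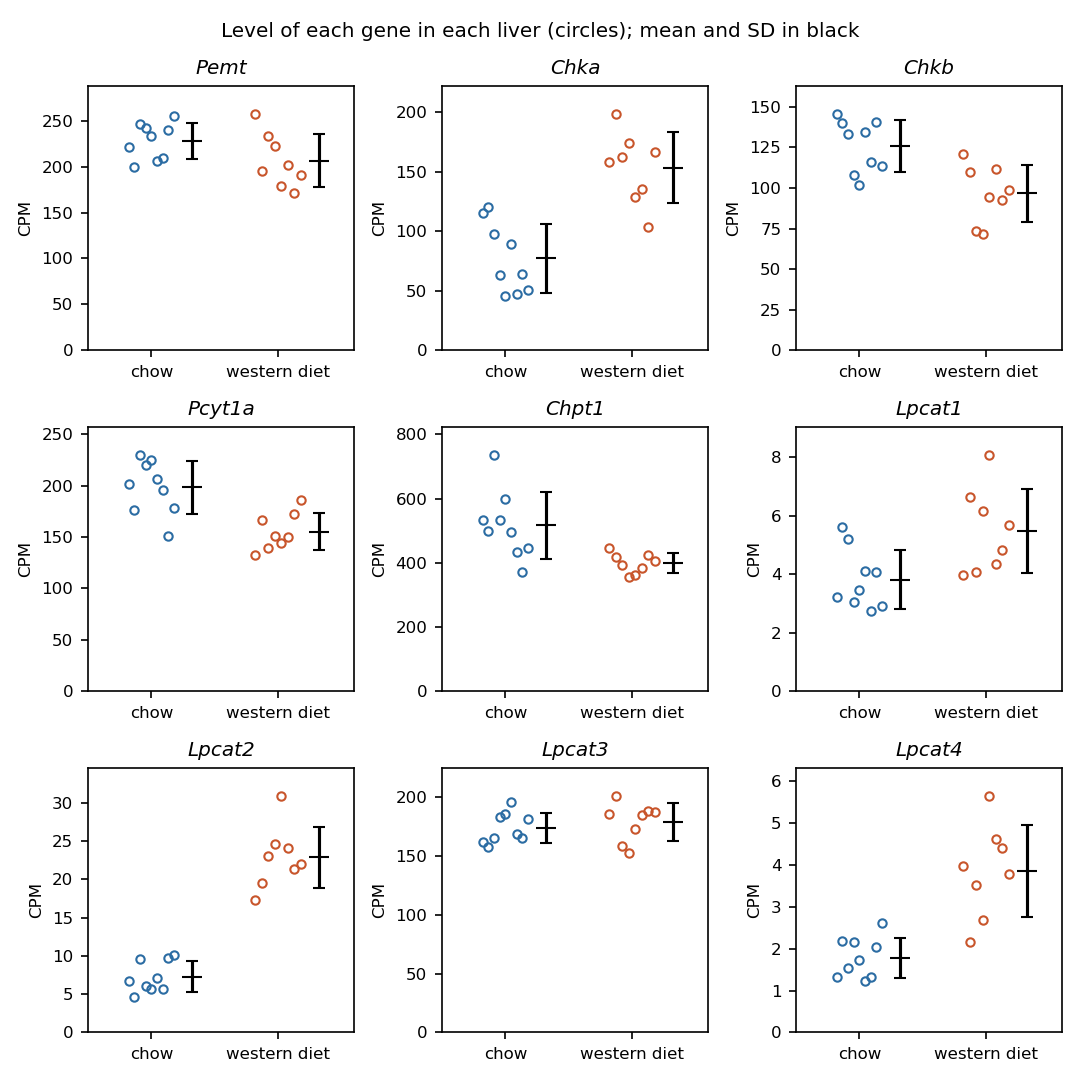
Level of the 9 genes in each liver, as CPM (counts scaled to library size, linear axes from 0); circles are libraries, 9 on chow (blue) and 8 on western diet (orange), and the black bar is the mean with the SD. Lpcat2 is the gene whose diets are fully apart, from 17.3 to 30.9 CPM on western diet and from 4.67 to 10.1 CPM on chow.

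Levels are given as CPM, computed with TMM-scaled library sizes, and are compared between diets only, since the length of the transcripts was not used. Libraries held 3604212 to 9071908.5 counts, and a count of 0 allowed up to 0.314 to 0.850 CPM, which is the level of 3 counts and allows for counting error alone. Chka, Chkb, Pcyt1a, Chpt1, Pemt and Lpcat3 had at least 290.5 counts in every library. The other acyltransferases rested on fewer: 30.5 to 268.5 counts for Lpcat2, 14 to 69.5 for Lpcat1 and 8 to 49 for Lpcat4. Lpcat4 reached the level the low count filter asks for, 1.503 CPM without TMM scaling, in all 8 western diet libraries but in 5 of 9 on chow, so it passed the filter through the group in which it was higher. The other 8 genes were over that level in all 17 libraries. Hepatocyte markers were abundant in all livers, at a summed 10387 to 17276 CPM on western diet and 13738 to 18106 CPM on chow, where 4 of 10 fell and 6 did not pass. Their summed median was 12653 CPM on western diet and 16200 CPM on chow, a ratio of 0.78. The part of hepatocytes in the falls of Chkb, Pcyt1a and Chpt1 was not tested. Chow replicate 2 and western diet replicate 5 carried transcripts of pancreatic acinar cells (15344 and 5015 CPM over 10 markers, against 165 to 615 CPM in the others); without both, again 4 of the 9 genes rose and 3 fell.

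On the mouse assembly GRCm38 (mm10), the genes of the choline route span chromosome 19, 3851585 to 3894369 (Chka), chromosome 15, 89426349 to 89429927 (Chkb), chromosome 16, 32430921 to 32475065 (Pcyt1a) and chromosome 10, 88469513 to 88503970 (Chpt1). Pemt lies on chromosome 11, 59970614 to 60046561. The acyltransferases lie on chromosome 13, 73467231 to 73516420 (Lpcat1), chromosome 8, 92855313 to 92919279 (Lpcat2), chromosome 6, 124663094 to 124704716 (Lpcat3) and chromosome 2, 112239841 to 112247111 (Lpcat4). Each span covers exons and introns of a protein-coding gene. The annotated transcript Gm44502 runs over the whole of Chkb, a stretch of 3579 bases. Sycp3 shares 3724 bases of its span with Chpt1, and Emg1 shares 347 with Lpcat3. The strand setting of the counting is not given in the sources used here, so reads of these pairs could be shared.

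The choline kinases, which catalyse the same first step, moved in opposite directions. Chka, the kinase that is induced in several tissues by growth signals and stress, was at 103 CPM in the lowest western diet library, 160.3 in the median and 198 in the highest, against 45.6, 63.9 and 121 CPM on chow. The diets overlapped in 1 western diet library, replicate 7, which lay among the highest chow libraries, and the other 7 were above all 9 on chow. Chka rose 1.99-fold (log2 difference 0.99 ± 0.20, ± SE; 153 ± 29.7 against 77.1 ± 29.3 CPM, mean ± SD, n = 8 and 9; adjusted p = 6.29e-04 by edgeR).

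Chkb, the choline kinase whose loss causes a muscular dystrophy in mice, ran from 71.8 CPM in the lowest western diet library through a median of 96.6 to 121 CPM, against 102 through 133 to 145 CPM on chow. Here 5 western diet libraries lay below all chow libraries, and all 8 lay below the chow mean. Chkb was 1.30-fold lower (log2 difference −0.38 ± 0.10; 96.7 ± 17.6 against 126 ± 16.05 CPM; adjusted p = 0.00482 by edgeR). With library size alone its log2 difference was −0.25 (adjusted p = 0.0575), short of the threshold. The overlapping Gm44502 had a log2 difference of −0.37 ± 0.12 (adjusted p = 0.0161), and its profile over the 17 libraries was the nearest to that of Chkb of 13012 genes compared, so the values of the pair cannot be told apart.

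Set against each other within a library, where no scaling between libraries enters, the kinases shifted between the diets. The log2 ratio of Chkb to Chka counts was 0.22 in the lowest chow library, 0.78 in the median and 1.30 in the highest. On western diet it was −1.28, −0.60 and −0.15. Chkb had more counts than Chka in all 9 chow livers and fewer in all 8 western diet livers, with no overlap. Transcript length was not used and reads of Gm44502 may be counted in Chkb. Which kinase had more transcripts therefore cannot be read from the sign of the ratio, only its shift between the diets. The mean ratio was −0.66 ± 0.41 on western diet and 0.79 ± 0.41 on chow (SD), a difference of −1.45, given as a description with no test.

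Chka also differed among livers of 1 diet, side by side with the clock gene Dbp, a transcription factor whose RNA in liver goes up and down strongly over the day. In order of rising Dbp, from 8.25 to 203 CPM, the chow libraries held 121, 97.8, 115, 89.6, 63.1, 45.6, 47.1, 63.9 and 51.1 CPM of Chka. The western diet libraries, from 10.8 to 88.8 CPM of Dbp, held 174, 162, 198, 129, 167, 158, 135 and 103 CPM. On chow the 4 libraries with the least Dbp held 89.6 to 121 CPM of Chka, and the other 5 held 45.6 to 63.9 CPM. The order was looser on western diet. Replicates 6 and 7, with the most Dbp, held 135 and 103 CPM of Chka. Replicate 5, with 62.1 CPM of Dbp, held 129 CPM, while replicates 8 and 1, with more Dbp, held 167 and 158 CPM. The western diet libraries reached less far up in Dbp than the chow libraries. With log2 CPM of Dbp as a covariate Chka differed by 1.02 ± 0.10 in log2 (adjusted p = 3.12e-07 by edgeR), and its SE was 0.10 in place of 0.20. Dbp was named after values were seen, so the smaller SE and p-value add no support to the rise. For Chkb, the 4 chow libraries with the least Dbp held 133 to 145 CPM, and of the other 5, replicate 8 held 140.5 CPM and the rest 102 to 116 CPM. On western diet the libraries with the least Dbp, replicates 4 and 3, held the least Chkb, at 71.8 and 73.4 CPM.

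**Figure D2:**
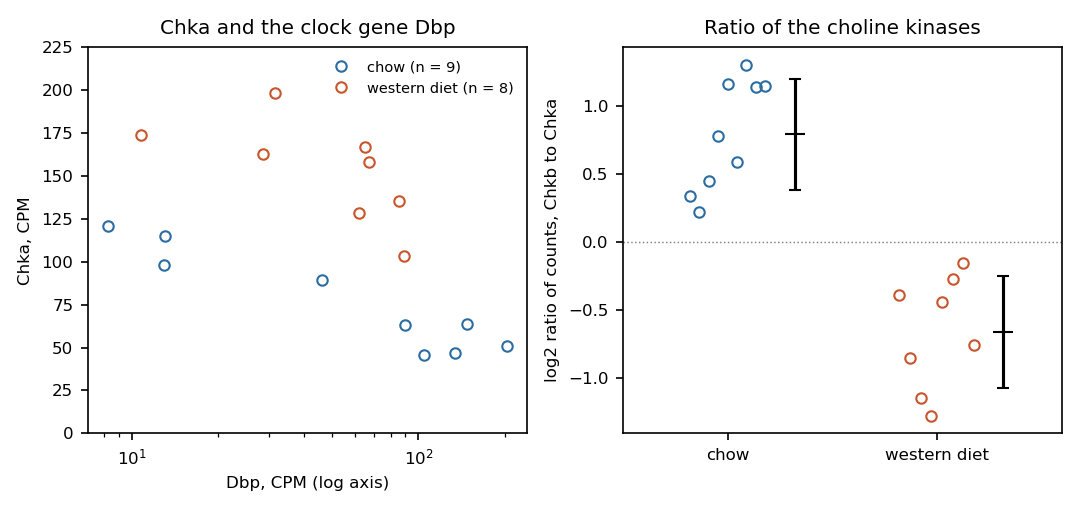
Left, Chka against Dbp in each liver (both in CPM, Dbp on a log axis), with chow in blue and western diet in orange; right, the log2 ratio of Chkb to Chka counts in each liver, with mean and SD in black. At like levels of Dbp the western diet livers held more Chka, and the ratio lay above 0 in all 9 chow livers and below 0 in all 8 western diet livers.

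Downstream of the kinases, the transcripts of Pcyt1a and Chpt1, genes of the later steps of the choline route, were lower on western diet. Pcyt1a, the regulated cytidylyl transferase, ran from 132 CPM in the lowest western diet library through a median of 151 to 186 CPM, against 151 through 202 to 229 CPM on chow. Its highest western diet value, in replicate 8, lay among the lower chow libraries, and 5 of 8 western diet libraries lay below all 9 on chow. Pcyt1a was 1.28-fold lower (log2 difference −0.35 ± 0.086; 155 ± 18.1 against 198 ± 25.8 CPM; adjusted p = 0.00214 by edgeR), and with library size alone its log2 difference was −0.22 (adjusted p = 0.0505).

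Chpt1, the cholinephosphotransferase of the last step, was held in a narrow band on western diet, at 357 CPM in the lowest library, 399 in the median and 447 in the highest. On chow it ran from 373 through 498 to 735 CPM. The chow libraries were the more spread, with a coefficient of variation of 20.3% against 7.74% on western diet, and 6 of 9 lay above every western diet library. Chpt1 was 1.29-fold lower (log2 difference −0.37 ± 0.10; 399 ± 30.9 against 517 ± 105 CPM; adjusted p = 0.00543), and it was the 1 fall still called with library size alone (−0.24, adjusted p = 0.0424). Without chow replicate 8, the chow library lowest in both genes, the log2 differences of Pcyt1a and Chpt1 were −0.39 and −0.42.

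Pemt, the enzyme of the methylation route, differed less than these. Its level was 171 CPM in the lowest western diet library, 199 in the median and 257 in the highest, against 199.8, 234 and 254 CPM on chow. Of the western diet libraries 4 lay below all chow libraries while 1, replicate 1, lay above all of them. The log2 difference was −0.15 ± 0.080 (206 ± 29.03 against 228 ± 19.6 CPM; adjusted p = 0.137), with a 95% interval of −0.31 to 0.020, and Pemt did not pass. Without western diet replicate 1 it passed, at −0.198 in log2 (adjusted p = 0.0336).

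The balance of the routes overlapped between the diets. The log2 ratio of Pemt to Pcyt1a counts within a library was −0.011 in the lowest western diet liver, 0.37 in the median and 0.96 in the highest, against 0.0024, 0.13 and 0.66 on chow. In 2 western diet livers, the ratio lay above all chow livers and in 1 below all of them.

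**Figure D3:**
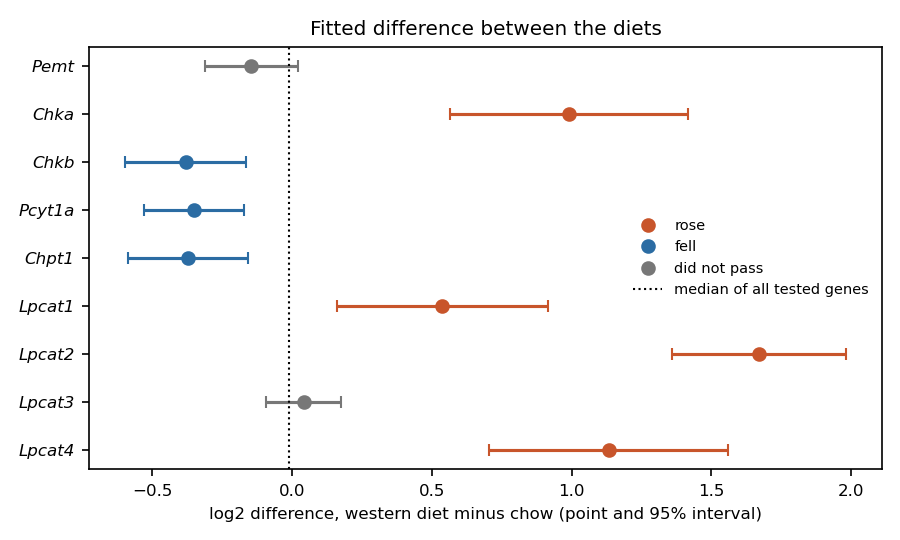
Fitted log2 difference, western diet minus chow, of each of the 9 genes with its 95% interval; colours give genes that rose, fell or did not pass, and the dotted line is the median of all tested genes. Chka and 3 of the 4 acyltransferases stand to the right, the rest of the choline route to the left, and the intervals of Pemt and Lpcat3 hold 0.

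Among the acyltransferases Lpcat3, the main one of hepatocytes and a known target of the liver X receptors, was at 152 CPM in the lowest western diet library, 185 in the median and 200.4 in the highest. On chow it was at 157, 169 and 196 CPM. The ranges lay over each other almost entirely, with 1 western diet library below and 1 above all chow libraries. Its log2 difference was 0.042 ± 0.064 (179 ± 16.3 against 174 ± 12.98 CPM; adjusted p = 0.619), with a 95% interval of −0.092 to 0.17. A change of over 1.13-fold in either direction lies outside that interval.

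The other acyltransferases rose. Lpcat2, an enzyme of inflammatory cells that makes both phosphatidylcholine and platelet-activating factor, was at 17.3 CPM in the lowest western diet library, 22.5 in the median and 30.9 in the highest. On chow the values were 4.67, 6.72 and 10.1 CPM, so that the lowest western diet library lay above the highest chow library. It rose 3.18-fold (log2 difference 1.67 ± 0.15; 22.9 ± 4.03 against 7.28 ± 2.04 CPM; adjusted p = 3.97e-08 by edgeR). Whole liver does not separate its cells. A change in the number of cells of a type and a change in RNA per cell cannot be told apart, here or in the other genes, those that fell included.

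Lpcat4, which acts on lysophospholipids of several head groups, was low throughout, at 2.16 CPM in the lowest western diet library, 3.88 in the median and 5.64 in the highest, against 1.23, 1.73 and 2.60 CPM on chow. Of the western diet libraries 7 lay above all 9 on chow, and replicate 2 lay among them. Lpcat4 rose 2.19-fold (log2 difference 1.13 ± 0.20; 3.85 ± 1.10 against 1.79 ± 0.48 CPM; adjusted p = 1.45e-04).

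Lpcat1, best known for the saturated phosphatidylcholine of lung surfactant, showed the smallest rise. Its values were 3.97, 5.25 and 8.06 CPM on western diet and 2.75, 3.46 and 5.60 CPM on chow, and the diets overlapped, with 4 western diet libraries above all chow libraries. It rose 1.45-fold (log2 difference 0.54 ± 0.18; 5.47 ± 1.43 against 3.82 ± 1.02 CPM; adjusted p = 0.0185). In each diet its highest value was in the library with pancreatic transcripts, and without both the log2 difference was 0.53 (adjusted p = 0.0140).

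Set against Lpcat3 within each library, the log2 ratio of Lpcat2 to Lpcat3 counts lay between −3.42 and −2.48 on western diet and between −5.05 and −4.08 on chow, with no overlap. The ratio of Lpcat4 to Lpcat3 lay above all chow livers in 7 of 8 western diet livers, and that of Lpcat1 to Lpcat3 in 2. On the log2 scale the mean ratios were higher on western diet by 1.65, 1.03 and 0.48.

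Markers of macrophages, like these 3 genes, were higher on western diet. All 12 macrophage markers rose, none was at 0 in any library, and their summed level was 1784 to 2764 CPM on western diet against 584 to 948 CPM on chow. Markers of bile duct cells rose in 6 of 7 tested (203 to 521 against 73.3 to 173 CPM), with Cftr at 0 in 2 libraries. Most of that sum was Spp1, at a mean of 333 CPM on western diet and 75.0 CPM on chow. All 4 tested neutrophil markers rose as well (19.9 to 86.1 against 7.71 to 14.9 CPM), while 4 others were too low to test. Markers of T and natural killer cells rose in 7 of 7 tested (20.1 to 128 against 9.29 to 27.9 CPM), and of stellate cells and fibroblasts in 9 of 10 (835 to 1524 against 571 to 731 CPM). In the remaining lists 2 of 6 B cell markers rose, 3 of 8 endothelial markers rose and 2 fell, 1 of 6 adipocyte markers rose and 3 fell, and the 10 pancreatic markers did not pass. The summed medians, western diet over chow, gave a ratio of 2.46 for macrophages, 4.08 for bile duct cells and 3.62 for neutrophils. For T and natural killer cells it was 2.65, and for stellate cells and fibroblasts 1.84. The part of these cells in the rise of Lpcat1, Lpcat2 and Lpcat4 was not tested. Per 1000 CPM of the macrophage markers, a ratio chosen after the values were seen, Lpcat2 was at 8.91 to 12.2 CPM on western diet and 5.28 to 11.7 CPM on chow. On the same ratio Lpcat4 was at 0.975 to 2.46 against 1.31 to 2.96 CPM. Lpcat1 was at 1.61 to 3.54 against 3.22 to 6.34 CPM, with medians of 2.46 and 4.29. These 3 ratios overlapped between the diets but did not move alike. Their mean log2 difference, western diet minus chow, was 0.29 for Lpcat2, −0.30 for Lpcat4 and −0.87 for Lpcat1.

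**Figure D4:**
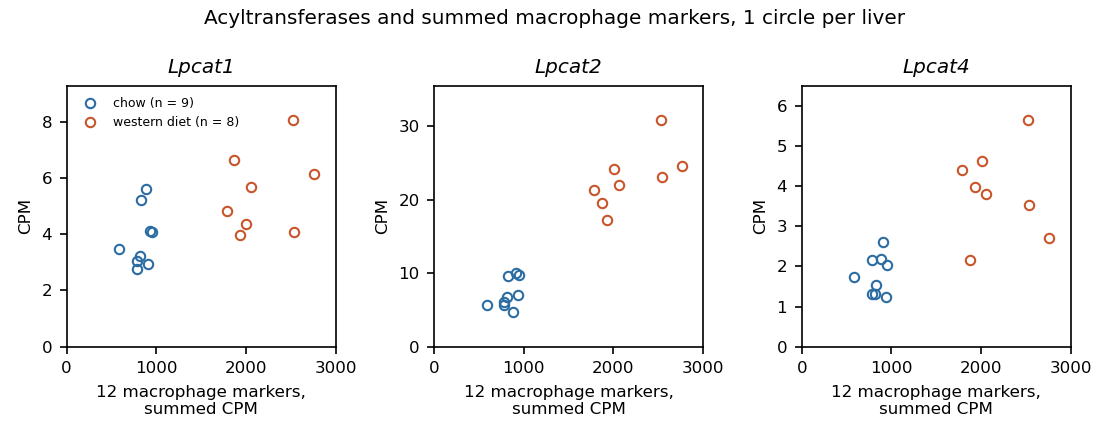
Lpcat1, Lpcat2 and Lpcat4 against the summed level of 12 macrophage markers, both in CPM on linear axes from 0, with 1 circle per liver (chow blue, western diet orange). The diets are apart in the markers in every panel, and apart in the acyltransferase in the panel of Lpcat2 alone.

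Around these genes, 8 lists of the wider pathway were counted, with the median log2 difference of their tested genes beside the −0.0091 of all tested genes. Over all tested genes 24.8% rose, 23.6% fell and 12.0% showed no overlap between the diets. Most genes named from a list are those with its smallest p, a choice that favours genes without overlap. Genes that supply or use choline and methyl groups moved both ways: of 20 tested 3 rose, 6 fell and 11 did not pass (median −0.17). The choline transporter-like proteins Slc44a3 and Slc44a2 rose, by 2.06-fold (adjusted p = 5.63e-07) and by 1.67-fold (adjusted p = 2.13e-05), with no overlap between the diets. Choline dehydrogenase Chdh, which turns choline into betaine, was 1.44-fold lower (359 ± 41.1 against 517 ± 65.8 CPM), also with no overlap, and Dmgdh, which takes a methyl group from dimethylglycine, 1.47-fold lower.

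Genes listed for the synthesis of phosphatidylethanolamine, the substrate of Pemt, and of phosphatidylserine were lower where they passed. The list also held the phosphatase Phospho1, which did not pass, and Pcyt1b of the choline route, which was not among the genes tested by edgeR. Of 9 tested none rose in edgeR's test or at an unadjusted p under 0.05 (0 in each, and 0 with limma-voom), 5 fell and 4 did not pass (median −0.30). DESeq2, which tested 17109 genes, gave 1 rise among the 10 genes listed. All 9 in edgeR's test had log2 differences below 0, and Pcyt1b is the only other gene of the list. Cept1, which performs the last step for choline and ethanolamine alike, was at 126 ± 8.37 against 167 ± 22.5 CPM, 1.32-fold lower (adjusted p = 1.84e-04). All its western diet libraries lay below all chow libraries. Ethanolamine kinase Etnk1 was 1.47-fold lower, the ethanolaminephosphotransferase Selenoi 1.42-fold, and Ptdss1, which exchanges the choline of phosphatidylcholine for serine, 1.28-fold.

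Acyltransferases other than the Lpcat genes, counted over 13 tested, gave 3 rises, 6 falls and 4 that did not pass (median −0.14). Lclat1, an acyltransferase of lysophospholipids, was 1.39-fold lower, the glycerol phosphate acyltransferase Gpat4 1.56-fold and Aup1, a protein of lipid droplets with an acyltransferase domain, 1.22-fold, whereas Agpat5, which makes phosphatidic acid, rose 1.46-fold. Without western diet replicate 7, 5 of them rose in place of 3. Enzymes that break down phosphatidylcholine and its lyso form gave 8 rises and 5 falls of 24 tested (median −0.11). Pla2g7, which macrophages secrete and which hydrolyses platelet-activating factor, rose 2.61-fold (35.3 ± 6.79 against 13.5 ± 3.24 CPM), the lysosomal phospholipase Pla2g15 1.64-fold and phospholipase D1, Pld1, 1.71-fold. The phospholipase Pnpla8 was 1.45-fold lower. In each of these 4 genes, named for the smallest p of their list, the diets did not overlap, as in 12.0% of all tested genes.

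Genes that carry phosphatidylcholine out of the hepatocyte or between its membranes gave 2 rises, 6 falls and 5 that did not pass of 13 tested (median −0.29). Abcb4, the pump that delivers phosphatidylcholine to bile, was at 631 ± 75.2 against 901 ± 86.004 CPM, 1.43-fold lower (adjusted p = 3.28e-05). The transfer protein Pctp was 1.87-fold lower and Mttp, which loads lipid onto apolipoprotein B, 1.73-fold lower (adjusted p = 3.92e-07). In Abcb4, Pctp and Mttp, also named for their small p, all 8 western diet libraries lay below all 9 on chow, as in 5.05% of all tested genes. Abcg1, an exporter of sterols and phospholipid that macrophages also express, rose 2.74-fold, beside the rise of the macrophage markers given above.

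For the lipids that feed the pathway, diacylglycerol and phosphatidic acid genes gave 2 rises and 5 falls of 12 tested (median −0.090). The lipid phosphate phosphatases Plpp1 and Plpp3 were 1.52-fold and 1.35-fold lower, Plpp2 rose 1.32-fold, and Dgat1, which makes triglyceride from diacylglycerol, was 1.25-fold lower. There was 1 rise in place of 2 when any of western diet replicates 2, 6, 7 or 8 or chow replicates 3, 6 or 7 was left out. Of 14 tested genes that make or activate long acyl chains 4 rose and 8 fell (median −0.40). Acsl1, an acyl-CoA synthetase, was 1.94-fold lower and Elovl2, which elongates polyunsaturated chains, 1.84-fold lower (511 ± 89.4 against 940 ± 152 CPM), while the desaturase Scd2 and the elongase Elovl1 rose 2.56-fold and 1.35-fold.

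Known targets of the liver X receptors gave 4 rises, no fall and 8 that did not pass in 12 tested (median 0.24). Falls were 0 by edgeR, also at an unadjusted p under 0.05, and 0 by DESeq2 and by limma-voom. The 4 that rose were Abcg1, Abca1 (1.48-fold), Abcg5 (1.86-fold) and Srebf1 (2.09-fold, 264 ± 35.5 against 126 ± 67.2 CPM, adjusted p = 0.00219 by edgeR). Lpcat3 is a member of that list too, among the 8 that did not pass, and its log2 difference of 0.042 was below the median of the list.

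**Figure D5:**
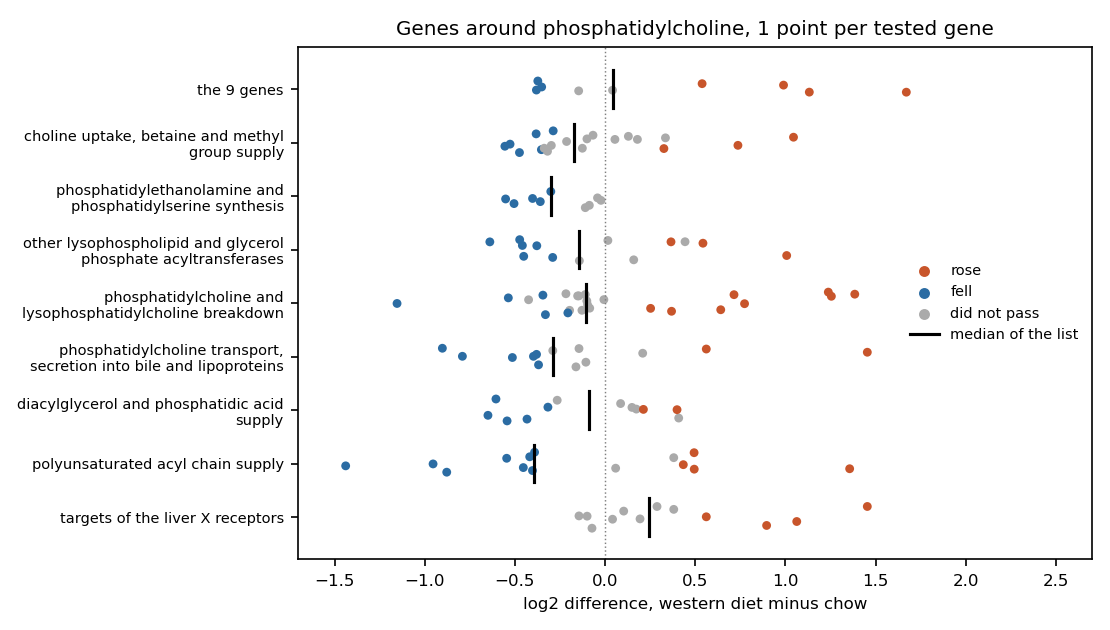
Log2 difference, western diet minus chow, of each tested gene of the 9 genes and of 8 lists around them; a point is a gene, coloured by whether it rose, fell or did not pass, and the black bar is the median of the list. The medians of 7 of the 8 lists lie below 0, from −0.40 to −0.090, and that of the liver X receptor targets at 0.24.

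The genes whose profile over the 17 libraries lay nearest to each of the 7 called genes were found by the mean absolute difference of centred log2 CPM, among 13012 genes. For Pcyt1a these were Pcnx (0.072) and Gna12 (0.079), and for Chpt1 Sar1b (0.082) and Psmd5 (0.091). Chkb was nearest to Gm44502 (0.052), which overlaps it, and to Gm16845 (0.10). For Chka the nearest were Clip2 and Neu3, both at 0.25, for Lpcat1 Ddr2 (0.155) and Kcnk6 (0.16), for Lpcat2 Rgs2 (0.175) and Scimp (0.18), and for Lpcat4 Limd2 and Sult1c2 (0.20 each). The distance is in log2 units.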

How the data were processed

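Whole liver RNA of 17 mice was measured, 8 on western diet and 9 on chow by the treatment field of the labels; the source name field reads western diet for all 17 and was not used. The authors deposited expected counts per gene symbol in steps of 0.5, not scaled between libraries, and 29.4% to 33.7% of the values in a library were not whole. The assembly mm10 and the tools HOMER, STAR 2.4.1c, MultiQC and FastQC are those of the submitters' processing notes; what options, strand setting and annotation release were used is not given in the sources used here.

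Of 24940 genes 3 had no value and were left out. Counts were rounded to whole numbers and filtered with filterByExpr, which left 13204 genes. Two-sided tests on diet alone used edgeR 4.0.16 (R 4.3.3) with TMM factors, robust dispersions, glmQLFit with a prior count of 0.125 and glmQLFTest, with Benjamini-Hochberg adjustment over all tested genes at 0.05. The SE was taken as the log2 coefficient divided by the root of F, and 95% intervals use the t quantile at the fit's degrees of freedom. Libraries of 1 diet all differed by more than sampling noise (chi-square per degree of freedom of at least 3.94 in each pair). P-values set the difference between the diets against the spread between mice. Positions and names are from a RefSeq table of GRCm38.p6, in which 24297 of the 24940 symbols were found.

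The 9 genes, the 8 pathway lists and the marker lists were chosen with earlier results of these data known. Named beside the 9 were the 4 genes of each list with the smallest p, and the 2 nearest profiles among genes whose log2 CPM averaged at least 1. Names of list and marker genes beyond this rule, such as Cftr, and of Dbp and overlapping genes, were chosen after values were seen. Alternatives were RLE factors, library size alone, DESeq2 1.42.0, limma-voom (limma 3.58.1), no low count filter, a filter that asks for 1 CPM in 8 or more libraries, doubled counts, Dbp as a covariate, leaving out each library, and leaving out both libraries with pancreatic transcripts. For the ratios they were added after seeing the data. The steps were tested on simulated data.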

Additional observations from a re-analysis of the deposited data

How the results depend on the processing

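Each of the 9 genes kept its direction in all 26 alternatives. With library size alone, Chkb and Pcyt1a no longer passed (log2 differences −0.25 and −0.22), 1 of the 9 genes fell in place of 3, and 1615 genes in all fell in place of 3122; that scaling moved the median of all genes to 0.12. Pemt ranged from −0.198 to −0.11 over the fits that left out 1 library, and Chka from 0.92 to 1.097. Of the list counts, rises of the choline and methyl group list were 5 with library size alone, and those of the phosphatidylethanolamine list were 1 with DESeq2 and 1 with no low count filter in place of 0. Both of those fits tested more genes than the main fit and could take in Pcyt1b, the listed gene that it left out. Rises of the diacylglycerol list were 4 with library size alone, 1 with no low count filter and 1 with doubled counts, and 1 to 3 over the fits that left out 1 library; rises of the other acyltransferases were 3 to 5 over those fits. The cause was not tested. Of 45 genes named beside the 9, 4 lost a call in some setting and none (0) changed direction. The 5 ratios each moved by less than 1 SD in the alternatives run for them. No paired analysis was possible because no label links a western diet mouse with a chow mouse. At 8 to 69.5 counts per library, depth limits Lpcat1 and Lpcat4.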
